A study of Mus musculus with 7 samples.

Results

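The genes described here are 37 genes of autophagy, mitophagy and the lysosome membrane, chosen by symbol from a list of pathway members and found in the table of 26019 gene rows. All 37 were found, and all 37 passed the filter on low values. Autophagy encloses cytoplasm or organelles in a double membrane and delivers them to the lysosome. A kinase complex (ULK) starts the process, a lipid kinase complex marks the forming membrane, and conjugation enzymes attach small ubiquitin-like proteins of the ATG8 family to it. Mitophagy is the form that removes mitochondria, either after PINK1 and Parkin tag their surface with ubiquitin or through receptors that sit in the outer mitochondrial membrane. Mitofusins are known as surface proteins on which PINK1 and Parkin act.

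Smart-Seq2, a full-length cDNA method, was applied to mouse oocytes from secondary follicles, where a growing oocyte lies within layers of granulosa cells. Libraries of 5 pooled oocytes came from wild-type (WT, 4 libraries) and knockout (KO, 3 libraries) C57BL/6J females. The labels conflict on the deleted gene, since the genotype label of the KO libraries reads Mfn1-/- while the series title and design name Mfn2. They also conflict on age (8 weeks in the protocol, P1 in the age label) and on the number of mice, given as 3 per group. The sources used here do not give how the deletion was driven or which mice gave which library. The p-values therefore cover the spread between libraries, which may be technical.

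The libraries held 6676076 to 8343915 reads in genes. Mfn2 was at 15.0 to 35.3 normalised counts (reads divided by 1 size factor per library) in WT and at 4.55 to 7.66 in KO, while Mfn1 was at 258 to 340 and 309 to 347. Mfn2 RNA was thus lower in KO (log2 fold change -1.94, SE 0.40, adjusted p = 0.00571 by limma), and Mfn1 did not pass the test. All 14 oocyte markers found in the table were detected in all 7 libraries. Their sum was 199400 to 275200 in WT and 234800, 397600 and 272500 in KO 1, KO 2 and KO 3, highest in KO 2. Gdf9 was at 28130 to 34580 over all libraries, and Ddx4 rose 2.42-fold in KO (adjusted p = 0.00287 by limma). Nlrp5 was 2.07-fold higher (adjusted p = 0.0976 by limma). Of the 14 oocyte markers, 4 were higher and 0 lower in KO at an unadjusted p under 0.05 by limma. The shares of all tested genes were 10.6% and 11.2%. Of the 15 granulosa markers tested, 13 had a positive log2 fold change and 2 a negative one. The median was 1.59, against -0.01 over all tested genes. At an unadjusted p under 0.05 by limma, 10 were higher and 1 lower, against 10.6% and 11.2% of all tested genes. Inhbb passed the filter only through the KO group (0 in all WT libraries and 1.82, 1.82 and 3.28 in KO), which fixed its sign in advance. Foxl2 passed it on KO 2, KO 3 and WT 4 (3.64, 3.28 and 1.08). Both genes are counted above. Inha was higher in KO 2 and KO 3 (395 and 338, against 54.5 in KO 1 and 11.9 to 66.7 in WT). Cyp19a1, the gene of aromatase, fell from 179 ± 28.4 to 78.2 ± 25.1 (log2 fold change -1.23, SE 0.23, adjusted p = 0.00251 by limma). Summed over all 17 granulosa markers, of which 11 to 17 were detected per library, the level was 3082 to 4186 in WT and 3777 to 5349 in KO (2-sided exact permutation test over 35 splits, p = 0.0857). Most of that sum was Serpine2, which was high in all libraries. Without Serpine2, Nr5a2 and Cyp19a1, an alternative added after seeing the data, the sum was 51.1 to 195 in WT and 207, 853 and 868 in KO 1, KO 2 and KO 3. No test is given for that sum, since the genes left out were chosen on their values and include Cyp19a1. Amh, a defining granulosa gene that did not pass the filter, was at or near 0 in WT and KO 1 (up to 0.953) and at 8.18 and 7.66 in KO 2 and KO 3. Other markers had other patterns. Fshr was at 1.07 to 39.3 in WT, 50.0 in KO 1, and 9.09 and 6.56 in KO 2 and KO 3. The mean of Inhba was 4.38 in WT and 1.21 in KO.

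Of the 37 genes, 2 rose in KO and 0 fell. The lysosome membrane gene Lamp2 was 1.98-fold higher, and Tbk1, the kinase that phosphorylates autophagy adaptors, was 1.58-fold higher. "Called" here means a Benjamini-Hochberg adjusted p under 0.05 over all 19227 genes tested, by limma on log2(value + 1), a scale that understates the change of low genes. The 2 calls are 5.41% of the members, against 6.71% of all tested genes called in either direction (3.09% higher and 3.63% lower). Among the 5242 tested genes with a WT mean between 84.8 and 552, the lower and upper quartile of the members, 9.9% were called. At an unadjusted p under 0.05 there were 7 higher and 0 lower, where 21.8% of all tested genes passed (10.6% higher and 11.2% lower). The KO and WT values did not overlap for 4 members, all higher in KO (Lamp2, Tbk1, Sqstm1 and Atg12), against 19.2% of all genes without overlap (9.37% with KO above WT and 9.83% with KO below). The fold change was positive for 23 members and negative for 14, with a median of 0.15 on the log2 scale, while over all tested genes 49.2% were positive and the median was -0.01. Since the libraries are bulk pools, fewer cells of a type and less RNA per cell cannot be told apart. As other tools, edgeR called 3 members (Lamp2, Tbk1 and Gabarap; 6.53% of all genes) and DESeq2 called 4 (those and Atg12; 7.58% of all genes), all higher, and 0 lower.

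**Figure D1:**
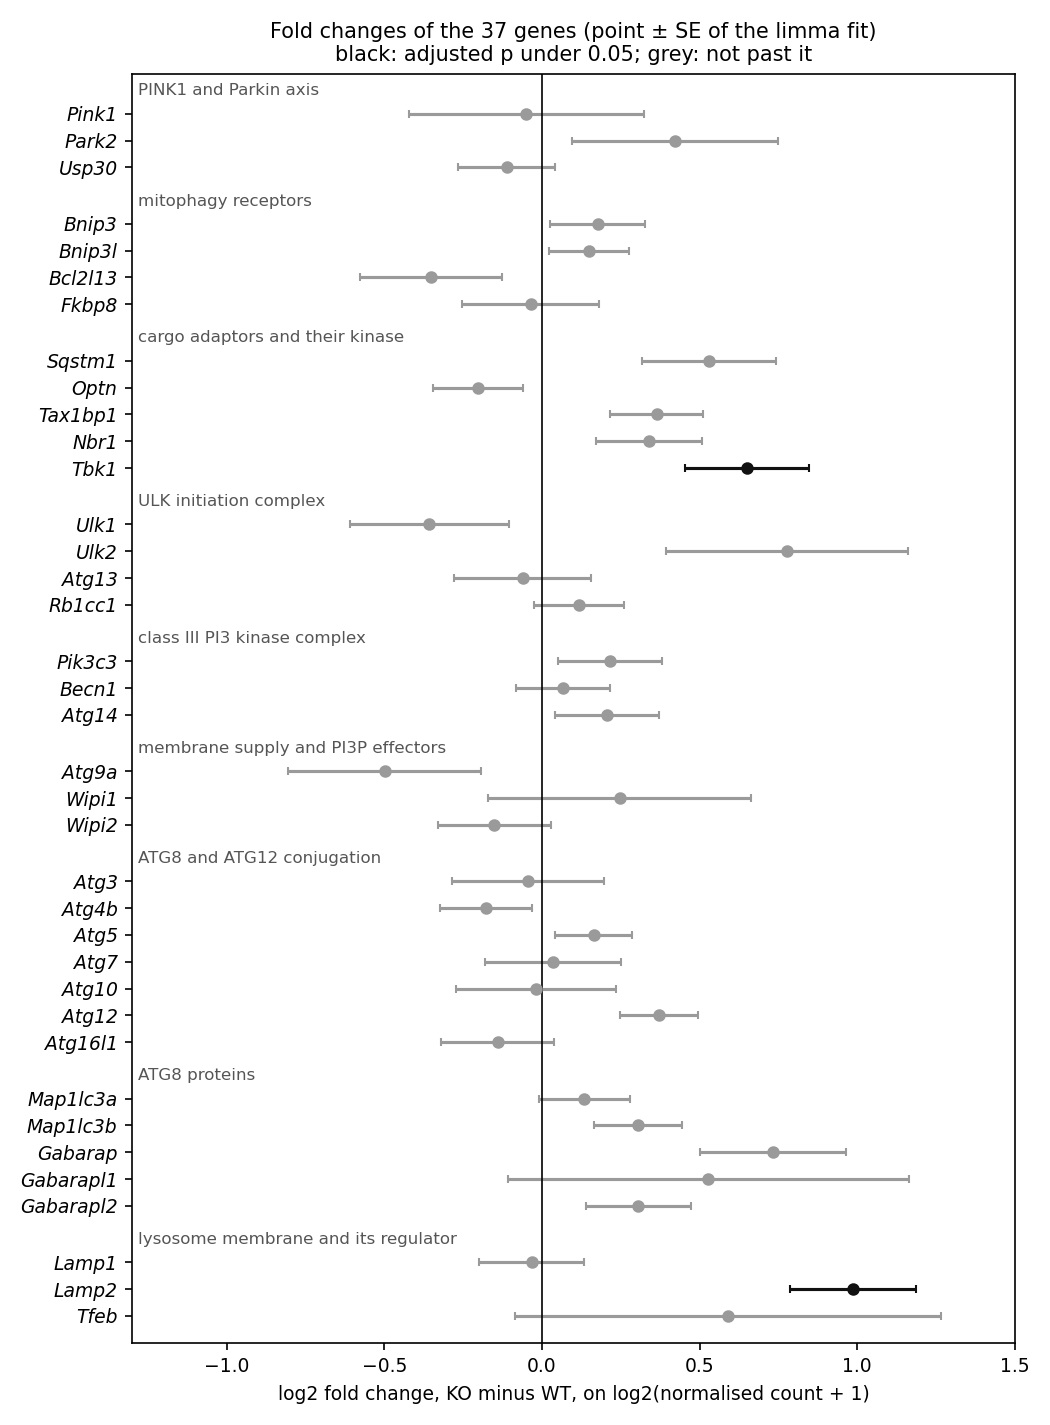
Log2 fold change of each of the 37 genes, KO minus WT (x axis), grouped by role (y axis), with bars of ± 1 SE of the limma fit over 4 WT and 3 KO libraries. Lamp2 and Tbk1 are in black as the genes past adjusted p of 0.05, and the other 35 are in grey.

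Per length, the genes spanned a wide range in these oocytes. Levels between genes were compared as normalised counts per kilobase of the annotated principal mRNA, averaged over all 7 libraries. Atg5, which joins ATG12 to form part of the conjugation machinery, had the highest level per kilobase (1637), followed by Lamp1 (1025), the adaptor Tax1bp1 (816) and the mitophagy receptor Bnip3l (668). Map1lc3a was next (533). The lowest was Tfeb, the transcription factor known as a regulator of lysosome genes, at 0.420 per kilobase. It was preceded by Gabarapl1 (3.18), Ulk2 (4.71) and Wipi1 (4.99). The values rest on annotated mRNA lengths, which may differ from the ends used in oocytes.

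**Figure D2:**
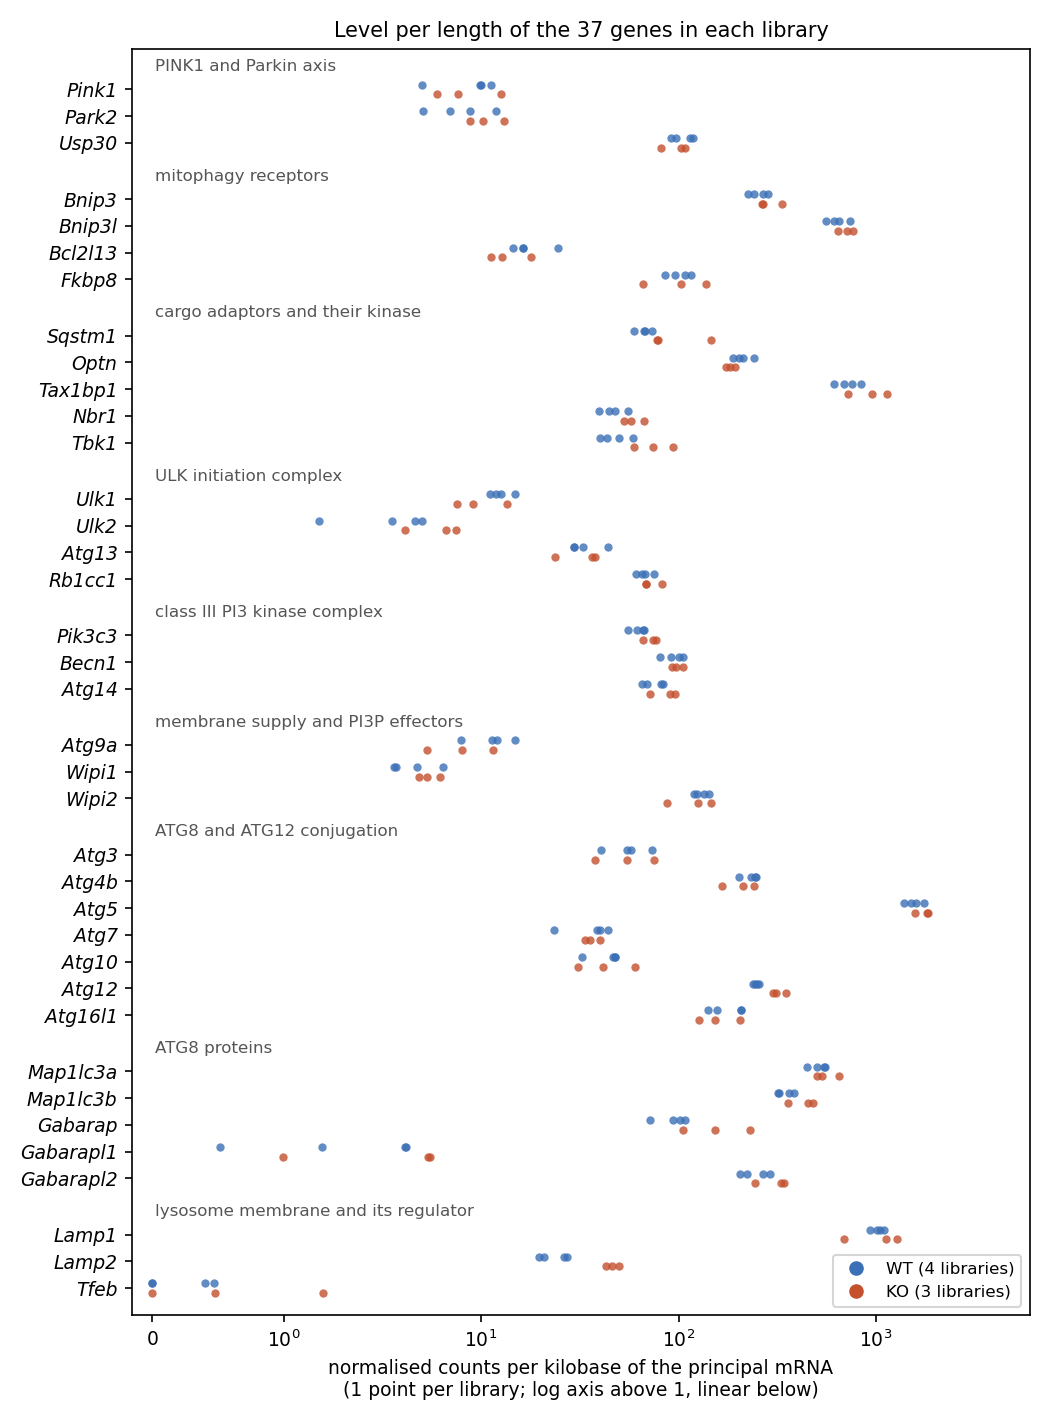
Level of each of the 37 genes in each library, in normalised counts per kilobase of the principal mRNA (x axis, logarithmic above 1 and linear below), with WT in blue and KO in red. Atg5, Lamp1 and Tax1bp1 lie furthest right, Tfeb lies at or near 0, and the WT and KO points of Lamp2 do not overlap.

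In the PINK1 and Parkin axis, 0 of 3 genes were called by limma, edgeR or DESeq2, with 0 at an unadjusted p under 0.05. Pink1, the kinase that accumulates on damaged mitochondria, was low, with mean normalised counts of 21.4 ± 6.51 over the 4 WT libraries and 20.8 ± 8.20 over the 3 KO libraries (± SD throughout). Park2, the gene of the ubiquitin ligase Parkin, was also low (26.2 ± 9.30 and 34.3 ± 6.94). Usp30, whose product removes ubiquitin from mitochondria, was the most abundant of this group. Its values were 447, 546, 529 and 419 in WT and 499, 475 and 375 in KO. The groups overlapped, and the log2 fold change was -0.11 (SE 0.16, adjusted p = 0.733 by limma). The RNA of the enzyme that reverses Parkin's mark thus exceeded that of both Pink1 and Park2 per kilobase in both groups (105 in WT for Usp30, 9.03 for Pink1 and 8.18 for Park2).

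The mitophagy receptors, which bind ATG8 proteins from the mitochondrial surface without PINK1, had 0 of 4 genes called by limma, edgeR or DESeq2 and 0 at an unadjusted p under 0.05. Bnip3l, also called NIX, was at 2104, 1972, 1813 and 2387 in WT and 2067, 2486 and 2315 in KO. KO 1 lay within the WT range and KO 2 just above it (log2 fold change 0.15, SE 0.13, adjusted p = 0.543 by limma). Its relative Bnip3 was at 446 ± 45.6 in WT and 505 ± 68.1 in KO. Bcl2l13 was at 124 ± 31.3 and 96.8 ± 23.8, and Fkbp8 at 182 ± 24.5 and 185 ± 64.9. Other annotated genes share 34.4% of the 75-base stretches of Bnip3 and 16.9% of those of Bnip3l, so these counts are less certain.

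Cargo adaptors link ubiquitin-tagged material to ATG8 proteins, and TBK1 phosphorylates several of them. Of the 5 genes here, Tbk1 (ENSMUSG00000020115.3; GRCm38 chromosome 10, 121546455 to 121586787, minus strand) rose. It was at 177, 151, 131 and 121 in WT and 181, 225 and 283 in KO. KO 1 lay just above WT 1, and KO 2 and KO 3 lay well above all WT libraries (log2 fold change 0.65, SE 0.20, adjusted p = 0.0485 by limma). The call was lost in 6 of 7 fits that left out 1 library (the exception was the fit without KO 1), the highest adjusted p being 0.182. Without both KO 2 and KO 3 the log2 fold change was 0.33. In such a fit KO 1 is the only KO library and is assumed to vary like WT, so the loss of a call there is no evidence of a smaller difference. The 2 libraries with the highest Tbk1 were those with the highest granulosa marker sum. With the granulosa marker level as a covariate the log2 fold change of Tbk1 was 0.52 (adjusted p = 0.519 by limma). With the mean of log marker levels it was 0.18 (adjusted p = 0.951). The first covariate, the log of the mean marker level, mainly follows Serpine2, whereas the second weighs the log level of each marker alike. Both were higher on average in KO, so they share part of the group difference. Over all genes these fits called 3 and 1, so the loss of a call there does not by itself show a smaller difference.

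Sqstm1, the gene of the adaptor p62, was at 135, 137, 121 and 149 in WT and 159, 296 and 160 in KO. All KO libraries lay above all WT libraries, but KO 1 and KO 3 only by a few counts, and KO 2 stood apart (log2 fold change 0.53, SE 0.21, adjusted p = 0.139 by limma). Without KO 2 its log2 fold change was 0.23, and with the granulosa covariate 0.11. Mrnip, which overlaps Sqstm1, shares 14.6% of its 75-base stretches. Tax1bp1 was at 2469, 2262, 2019 and 2747 in WT and 2382, 3136 and 3745 in KO. Here KO 1 was within the WT range and KO 2 and KO 3 above it (log2 fold change 0.36, SE 0.15, adjusted p = 0.151 by limma). Without KO 1 Tax1bp1 passed the test (0.54, adjusted p = 0.0240). Nbr1, another ubiquitin-binding adaptor, was at 224 ± 32.5 (SD, n = 4) and 283 ± 32.5 (SD, n = 3). Optn, the adaptor optineurin, had the opposite sign (552 ± 58.9 and 478 ± 24.3; log2 fold change -0.20, SE 0.14, adjusted p = 0.441 by limma).

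**Figure D3:**
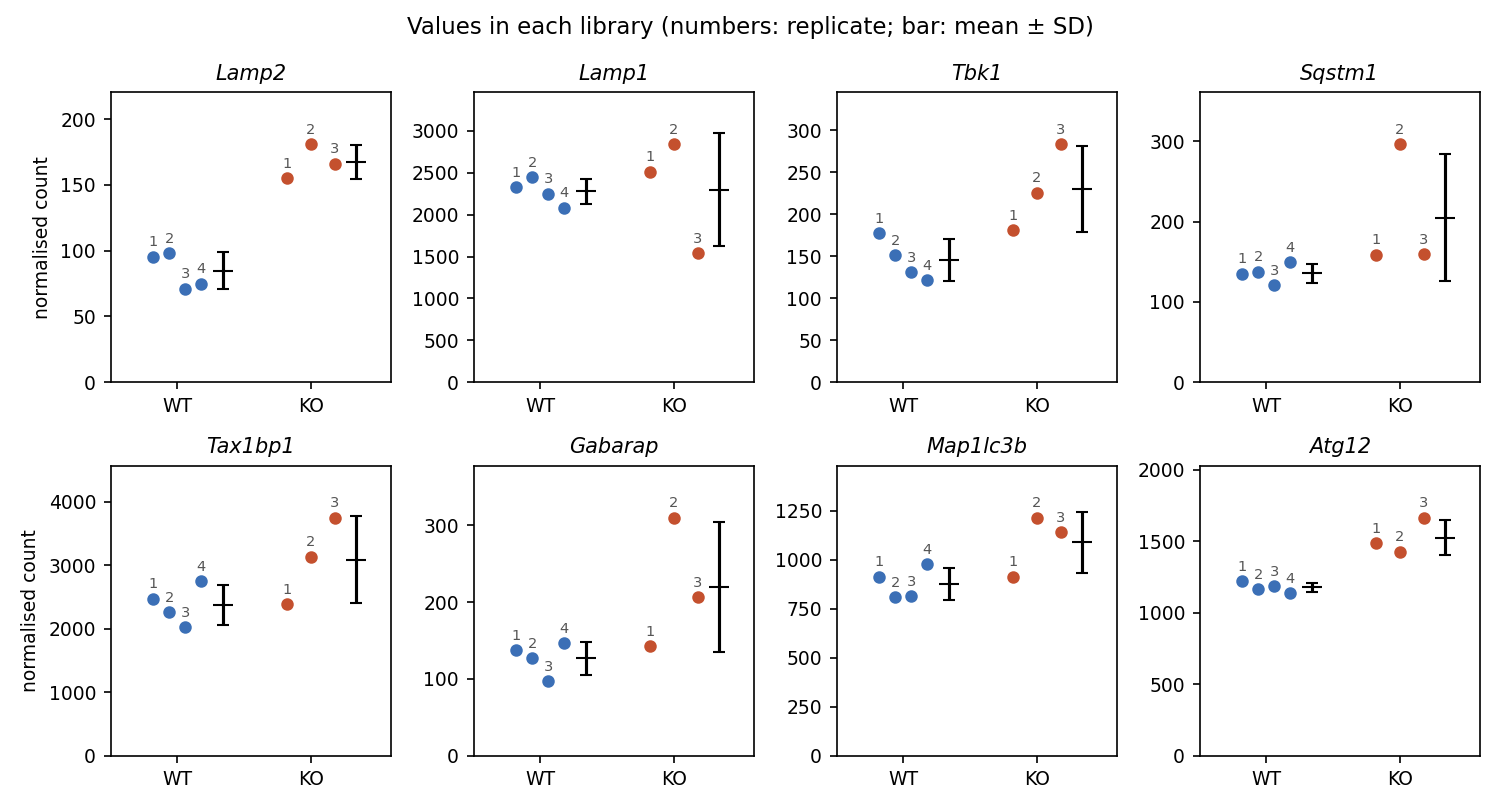
Normalised counts (y axes, from 0) of 8 genes in each WT (blue) and KO (red) library, with replicate numbers beside the points and bars of mean ± SD. For Lamp2 and Atg12 the KO points sit close together above all WT points, while for Sqstm1 and Gabarap KO 2 is far above KO 1.

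Among genes that start the autophagosome, 0 of 10 were called by limma, edgeR or DESeq2, with 0 at an unadjusted p under 0.05. In the ULK complex the scaffold gene Rb1cc1 (FIP200) was the most abundant, at 572, 499, 512 and 465 in WT and 522, 518 and 628 in KO. The groups overlapped (log2 fold change 0.12, SE 0.14, adjusted p = 0.692 by limma). The kinase genes were low and had opposite signs, with Ulk1 at 65.9 ± 8.44 in WT and 52.5 ± 16.4 in KO and Ulk2 at 21.1 ± 9.10 and 34.9 ± 9.98. For Ulk2 the log2 fold change of 0.78 had an SE of 0.38 (limma adjusted p = 0.242). In the lipid kinase complex, Becn1 (Beclin 1) was at 440, 398, 353 and 457 in WT and 425, 460 and 406 in KO, with nearly the same range in both groups (log2 fold change 0.07, SE 0.15, adjusted p = 0.842 by limma). Cntd1, which overlaps Becn1, shares 33.6% of its 75-base stretches. The catalytic subunit gene Pik3c3 was at 203 ± 17.2 and 236 ± 18.1, and Atg14, which directs the complex to autophagy, at 278 ± 33.1 and 321 ± 47.5. Wipi2, which reads the lipid mark, was at 264, 278, 235 and 242 in WT and 284, 245 and 172 in KO. KO 3 was the lowest and KO 1 the highest of the 7 values (log2 fold change -0.15, SE 0.18, adjusted p = 0.683 by limma). Its relative Wipi1 was near 10 in all libraries (7.46 to 13.1), and Atg9a, the membrane-spanning lipid scramblase, was at 47.3 in WT and 33.95 in KO (SD 11.7 and 12.7), with 28.8% of its 75-base stretches shared with other genes.

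The conjugation genes had 0 of 7 called by limma and 1 at an unadjusted p under 0.05, namely Atg12. ATG12 is the ubiquitin-like protein that is joined to ATG5. Atg12 was at 1218, 1163, 1186 and 1137 in WT and 1484, 1426 and 1663 in KO, so that each KO library exceeded each WT library and KO 1 exceeded KO 2. The log2 fold change was 0.37 (SE 0.12, adjusted p = 0.0746 by limma), and DESeq2 called it (adjusted p = 0.0394). Its partner Atg5 was at 3747, 3545, 3266 and 4092 in WT and 3699, 4276 and 4320 in KO. KO 1 was within the WT range, and KO 2 and KO 3 were slightly above it (log2 fold change 0.16, SE 0.12, adjusted p = 0.465 by limma). Fold changes of the other conjugation genes lay between -0.18 for the protease gene Atg4b (965 ± 83.9 in WT and 860 ± 156 in KO) and 0.04 for the E1-like enzyme gene Atg7 (137 ± 34.1 and 137 ± 12.5). Atg16l1, which places the conjugate on the membrane, had 556 ± 108 and 507 ± 124. Atg3, an E2-like enzyme gene, had 117 ± 28.0 and 115 ± 38.5, and Atg10, the other, 69.1 ± 11.8 and 69.9 ± 23.4.

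All 5 genes of ATG8 proteins, which coat the autophagosome and bind adaptors, had a positive fold change. By limma 0 were called, and 2 reached an unadjusted p under 0.05, Gabarap and Map1lc3b. Gabarap was at 137, 127, 97.2 and 146 in WT and 143, 310.0 and 207 in KO. KO 1 was within the WT range, KO 3 above it and KO 2 the highest (log2 fold change 0.73, SE 0.23, adjusted p = 0.0626 by limma). edgeR (adjusted p = 0.0415) and DESeq2 (adjusted p = 0.0224) called it. Without KO 1 limma called it too (1.01, adjusted p = 0.00728), and without KO 2 the log2 fold change was 0.45. It was 0.08 with the granulosa covariate (adjusted p = 0.936), 0.14 with its log-mean form and 0.18 with KO 1 as the only KO library. Map1lc3b, the gene of LC3B, was at 912, 807, 813 and 977 in WT and 912, 1213 and 1139 in KO. Again KO 1 was level with WT, and KO 2 and KO 3 were higher (log2 fold change 0.30, SE 0.14, adjusted p = 0.204 by limma). Gabarapl2 was at 414 ± 66.7 and 512 ± 90.6, Map1lc3a at 568 ± 53.5 and 625 ± 87.1, and Gabarapl1 near the limit of detection (4.71 ± 3.34 in WT and 7.22 ± 4.68 in KO).

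Per kilobase, Map1lc3a made up 42.7 ± 5.26% of ATG8 RNA in WT and 38.6 ± 4.05% in KO. Map1lc3b followed with 28.8 ± 1.82% and 29.4 ± 1.39%, and Gabarapl2 with 20.5 ± 2.70% and 20.9 ± 2.25%. Gabarap had 7.80 ± 1.11% in WT and 10.9 ± 2.52% in KO, at 8.51% in KO 1, 13.5% in KO 2 and 10.5% in KO 3. The order of the 5 genes by mean share was the same in both groups. Other annotated genes share 9.53% of the 75-base stretches of Gabarapl2 and 4.09% of those of Map1lc3b, and 20.5% of those of Gabarapl1.

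The lysosome membrane is covered by a pair of related glycoproteins, LAMP1 and LAMP2, and LAMP2 is also needed for fusion of autophagosomes with lysosomes and, in its A form, for chaperone-mediated autophagy. Lamp2 (ENSMUSG00000016534.15; GRCm38 chromosome X, 38401357 to 38456454, minus strand) was at 95.3, 98.0, 71.0 and 74.7 in WT and 155, 181 and 166 in KO. The KO libraries lay close together, and the lowest of them was well above the highest WT library. Means were 84.8 ± 13.9 (SD, n = 4) and 167 ± 12.8 (SD, n = 3), with a log2 fold change of 0.99 (SE 0.20, adjusted p = 0.00513 by limma). Isoforms cannot be told apart in counts per gene. The call was kept in 7 of 7 fits that left out 1 library, with a log2 fold change of 0.91 to 1.06 and adjusted p of up to 0.0254. With KO 1 as the only KO library the log2 fold change was 0.88. With the granulosa marker level as a covariate it was 0.90 (adjusted p = 0.250 by limma) and not called. The log-mean form gave 0.87 (adjusted p = 0.711), also not called.

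In KO 1 the level of Lamp2 was 1.83 times the WT mean, in KO 2 2.13 times and in KO 3 1.96 times. Relative to the WT mean, KO 1 was at 1.25 for Tbk1, 1.12 for Gabarap, 1.17 for Sqstm1, 1.26 for Atg12, 1.00 for Tax1bp1 and 1.04 for Map1lc3b.

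**Figure D4:**
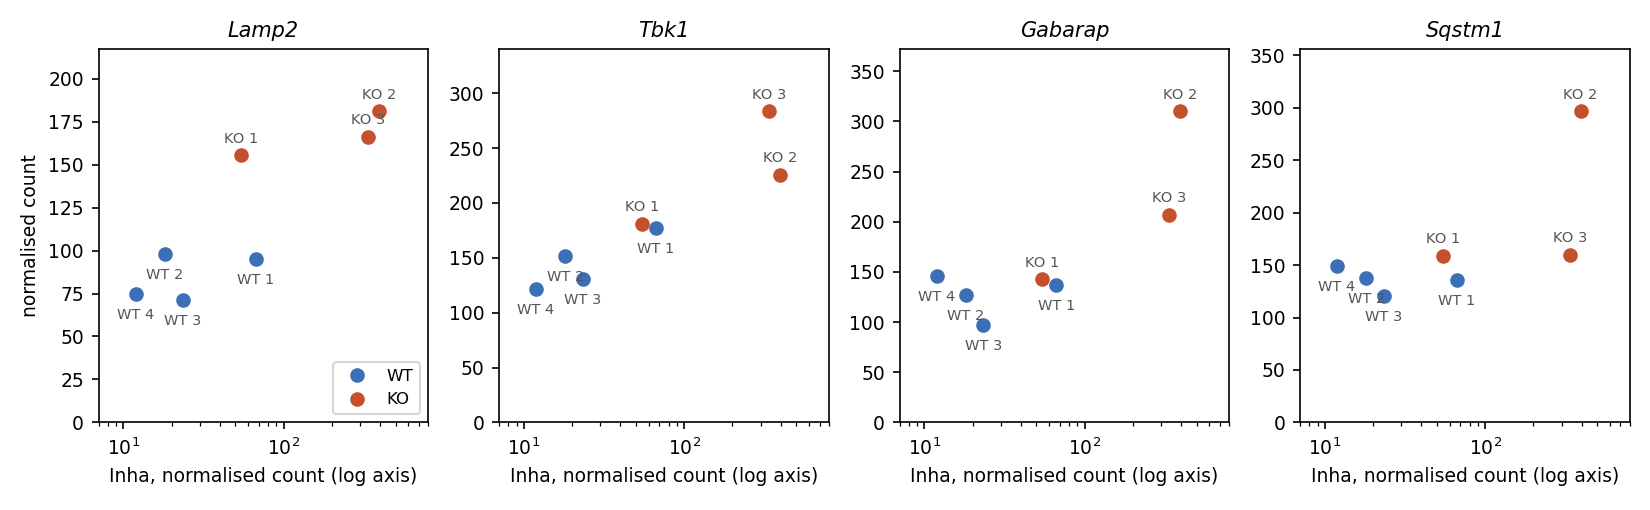
Normalised counts of Lamp2, Tbk1, Gabarap and Sqstm1 (y axes, from 0) against those of the granulosa gene Inha (x axes, logarithmic), with 1 point per WT (blue) or KO (red) library. KO 2 and KO 3 lie furthest right in every panel, and the 3 KO points of Lamp2 all lie above the WT points.

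Lamp1 (GRCm38 chromosome 8, 13159161 to 13175338, plus strand) was far more abundant than Lamp2 and was not called. It was at 2329, 2445, 2251 and 2083 in WT and 2513, 2839 and 1540 in KO. KO 1 and KO 2 were above all WT libraries and KO 3 below them, so the KO libraries spread to both sides (log2 fold change -0.03, SE 0.17, adjusted p = 0.940 by limma). The sign was positive with edgeR (0.017) and DESeq2 (0.013). Lamp2 counts amounted to 4.09%, 4.01%, 3.16% and 3.59% of Lamp1 counts in WT and to 6.18%, 6.37% and 10.8% in KO. Tfeb was listed at 0 in WT 1, WT 2 and KO 1 and at no more than 3.64 elsewhere, so no change in it was detectable at this depth.

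The promoter windows of both Lamp genes are shown because 1 gene of the pair was called and the other was not, and because the best-known lysosome gene regulators of the TFEB family bind palindromic sites with a CACGTG core. RefSeq sequence (GRCm38.p6) of the 250 bases before the start site was found for 29 of the 37 genes. Both strands are covered, since CACGTG and the longer TCACGTGA, which contains it, are their own reverse complements. These genes have 33 windows, as some have several start sites. CACGTG occurred in 5 of the 33 windows (1 each of Lamp1, Atg3, Atg5, Atg7 and Bnip3) and in 6.02% of all 32851 windows of this length, and TCACGTGA in 1 (Atg3) and in 0.785%. No test was made of these shares. The window of Lamp1 (chr8:13158911-13159160, plus strand) held 4 copies, a number that 7 windows in the whole table reached or exceeded. That of Lamp2 (chrX:38456461-38456710, minus strand) held 0. Atg3 (chr16:45158579-45158828, plus strand) is given as the member with the longer match. Capitals mark CACGTG, and each sequence runs 5′ to 3′ toward the start site.
Lamp1: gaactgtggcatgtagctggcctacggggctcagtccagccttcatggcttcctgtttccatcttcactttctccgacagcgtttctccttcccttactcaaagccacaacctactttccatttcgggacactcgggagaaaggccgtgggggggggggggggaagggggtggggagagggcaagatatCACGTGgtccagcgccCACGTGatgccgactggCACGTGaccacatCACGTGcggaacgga
Lamp2: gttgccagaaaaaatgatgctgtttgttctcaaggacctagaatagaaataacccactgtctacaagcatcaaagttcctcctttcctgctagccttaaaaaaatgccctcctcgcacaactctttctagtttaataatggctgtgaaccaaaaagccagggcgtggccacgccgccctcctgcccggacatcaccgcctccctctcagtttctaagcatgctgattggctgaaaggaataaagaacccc
Atg3: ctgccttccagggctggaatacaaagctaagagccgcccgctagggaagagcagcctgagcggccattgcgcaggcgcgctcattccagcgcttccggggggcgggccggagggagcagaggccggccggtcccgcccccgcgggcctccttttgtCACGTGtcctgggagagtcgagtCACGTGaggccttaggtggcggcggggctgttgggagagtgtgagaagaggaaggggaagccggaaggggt
Of the 29 genes with a window, 5 held the core, so most members lacked it there, among them Lamp2 and Tbk1. Any link between these sites and the calls was not tested. In Lamp1 the 4 copies begin 61, 45, 28 and 15 bases before the start site. A match describes the letters only.

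Other genes of the same pathways, from a list of 77 of which 73 could be tested, gave 4 higher and 1 lower (6.85% called, against 6.71% of all genes). Their median log2 fold change was 0.07. The core autophagy gene Wdr45b, of the same lipid-binding family as Wipi1 and Wipi2, was at 135, 120, 92.5 and 132 in WT and 209, 285 and 253 in KO. Each KO library lay above each WT library (log2 fold change 1.05, SE 0.19, adjusted p = 0.00236 by limma), and the call was kept in 7 of 7 fits that left out 1 library. With KO 1 as the only KO library the log2 fold change was 0.81. With the granulosa covariate it was 0.69 and not called (adjusted p = 0.308 by limma). The log-mean form gave 0.745 (adjusted p = 0.741), also not called. Vps41, a subunit of the complex that tethers vesicles to the lysosome, was at 550, 454, 380 and 487 in WT and 551, 865 and 768 in KO. KO 1 was level with WT 1, and KO 2 and KO 3 were higher (0.63, SE 0.17, adjusted p = 0.0285 by limma). Single omission of WT 2, WT 3, WT 4, KO 2 or KO 3 ended its call (highest adjusted p 0.137). Its log2 fold change was 0.22 with the granulosa covariate (adjusted p = 0.730), 0.11 with the log-mean form and 0.25 with KO 1 as the only KO library.

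Ostm1, whose product partners the lysosomal chloride transporter CLC-7, was at 73.4, 59.7, 73.8 and 78.0 in WT and 115, 177 and 142 in KO. The groups did not overlap (log2 fold change 1.00, SE 0.21, adjusted p = 0.00731 by limma), though the call was lost without KO 2 (adjusted p = 0.0511). Ostm1 was not called with the granulosa covariate (log2 fold change 0.696, adjusted p = 0.382 by limma) or its log-mean form (0.544, adjusted p = 0.848). With KO 1 as the only KO library the log2 fold change was 0.695. Of the TFEB family, Tfec was at 8.58, 6.39, 16.8 and 6.50 in WT and 59.0, 17.3 and 43.8 in KO. It was highest in KO 1, and KO 2 lay just above WT 3 (1.89, SE 0.44, adjusted p = 0.0127 by limma). The call was lost without KO 1 (adjusted p = 0.0584) or KO 3 (0.0612). It was also lost with the granulosa covariate (log2 fold change 2.93, adjusted p = 0.0678 by limma) and its log-mean form (2.39, adjusted p = 0.517). In both of these fits the log2 fold change was larger than in the main fit. The other family members, Tfe3 (226 ± 82.2 and 191 ± 52.7) and Mitf (22.7 ± 4.77 and 27.0 ± 3.21), were not called. Of further mitophagy genes Phb2, a prohibitin known to bind LC3 when mitochondria are damaged, fell from 2272 ± 237 to 1643 ± 291 (log2 fold change -0.48, SE 0.14, adjusted p = 0.0418 by limma). Single omission of WT 1, WT 2, WT 3, KO 2 or KO 3 ended this call as well (highest adjusted p 0.148). By edgeR Phb2 was not called (-0.46, adjusted p = 0.0581). Nor was it called with the granulosa covariate (-0.33, adjusted p = 0.549 by limma) or its log-mean form (-0.27, adjusted p = 0.888).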

How the data were processed

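Per the submitters' processing notes, the build was GRCm38 (mm10), and STAR, cutadapt, FastQC, DESeq and DESeq2 were used. The sources used here do not give the counter. The deposited signal values are gene counts that the authors divided by 1 size factor per library (0.914 to 1.10): at least 99.95% of non-zero values per library lay within 0.05 of a whole read. The main test was limma 3.58.1 (R 4.3.3; trend, robust) on log2(value + 1) over the genes that reached 1 in 3 or more libraries. edgeR 4.0.16 (1255 genes called) and DESeq2 1.42.0 used the recovered reads. The limma step was also run on simulated reads, drawn for each gene independently. That run does not measure the error rate in these libraries. Exon ends, identifiers and shared 75-base stretches come from GENCODE M21, and the libraries carry no strand. Members and lists were chosen with earlier results of these data known. Members given in full are those called, those at an unadjusted p under 0.05 and the most abundant of each role. Other pathway genes named are those called. Libraries of a group differed by more than sampling noise (chi-square per degree of freedom of at least 5.44).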

Additional observations from a re-analysis of the deposited data

Results flagged for a closer look

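Among 45 sets of 4 WT values (each member, the named pathway genes and 3 list sums), 1 held a library far from the others. Atg10, which encodes an E2-like enzyme of conjugation, was at 51.5 in WT 1 against 75.6, 75.7 and 73.7 in WT 2, WT 3 and WT 4, a gap of 0.915 of the whole range. Chance flags about 1 in 20 such sets. KO libraries, being 3, were not examined this way.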

How the results depend on the processing

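The 7 called genes among the 19 named (Lamp2, Tbk1, Wdr45b, Vps41, Ostm1, Tfec and Phb2) kept their sign in all 20 alternatives each, and 23 sign changes occurred among genes that were not called. The called genes were selected for their differences in these same libraries, so their steady signs are no independent support. In place of 1291 genes called, 2 members and 5 other pathway genes, limma without trend and robust estimation gave 106, 0 and 0, the granulosa covariate 3, 0 and 0, its log-mean form 1, 0 and 0, and leaving out KO 2 and KO 3, which leaves 1 KO library, 98, 0 and 0. At an unadjusted p under 0.05, limma gave 4, 3, 1 and 2 members and 10, 8, 4 and 4 other genes in these fits. Leaving out 1 library gave 594 to 1767 genes, 1 to 4 members and 2 to 7 other genes. Called members numbered 1 with a pseudocount of 0.5, 1 with CPM scaling and 4 with DESeq2. Without a filter 8 other genes were called. The replicate block gave 1022 genes and 1 member (Tbk1 not called, adjusted p = 0.144). Replicate numbers showed no sign of pairing (same-number correlations of -0.12, 0.026 and 0.022), and KO 1 did not correlate best with WT 1. With so few libraries these correlations cannot exclude a pairing. The granulosa sum was 1.31-fold (1.21 to 1.43 with 1 library left out), and 5.64-fold without Serpine2, Nr5a2 and Cyp19a1. The granulosa covariate mainly follows Serpine2, while its log-mean form weighs all markers alike. The cause of these shifts was not tested. Signs of log2 fold changes turned with the granulosa covariate for Tax1bp1 (-0.014), Usp30 (0.099), Bnip3l (-0.111), Becn1 (-0.101), Wipi2 (0.008), Atg5 (-0.055) and Lamp1 (0.04). With its log-mean form they turned for Map1lc3b (-0.007), Usp30 (0.141), Bnip3l (-0.005), Rb1cc1 (-0.083), Wipi2 (0.166) and Lamp1 (0.111). Without KO 2 and KO 3 they turned for Usp30 (0.048), Wipi2 (0.162) and Lamp1 (0.145), and for Lamp1 also with edgeR (0.017) and DESeq2 (0.013). With 1 library left out the range was -0.191 to 0.013 for Usp30, -0.005 to 0.119 for Becn1, -0.308 to 0.054 for Wipi2 and -0.208 to 0.233 for Lamp1.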
